A study of Homo sapiens with 22 samples.

Results

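The phagocyte NADPH oxidase makes superoxide in neutrophils, monocytes and macrophages, and 5 of its genes are described here in THP-1 cells, a human monocytic leukaemia line. The 5 genes, CYBA, CYBB, NCF1, NCF4 and RAC2, were named for their known role, but with earlier results of these data known. They are set beside 20033 protein-coding genes. Each gene was given the ChIP peaks that lie in it or within 1 kb of either end of its RefSeq span, called gene-end peaks in the second case, and the CLIP rows that carry its symbol.

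As background, the enzyme is assembled only when the phagocyte is stimulated. CYBB (gp91phox, also NOX2) and CYBA (p22phox) form the membrane cytochrome that passes electrons to oxygen. NCF1 (p47phox), the organiser, NCF4 (p40phox), a phosphoinositide-binding regulator, and the small GTPase RAC2 wait in the cytosol. Loss of CYBB, CYBA, NCF1 or NCF4 causes chronic granulomatous disease, in which phagocytes fail to kill ingested microbes.

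The tested cultures were THP-1 cells infected with a lentivirus that carried sh-QKI5, a hairpin sequence against QKI5, and their controls were THP-1 cells infected with a lentivirus that carried sh-control. The labels name no inducer of differentiation and no time after infection for either group, and the design text of the series calls the control cells untreated. QKI5 is a nuclear isoform of the RNA-binding protein QKI. The peak lists hold no measure of QKI5 level, so the knockdown itself was not checked here. Of the 22 samples, each condition had 2 for H3K4me3 ChIP, 2 for ChIP of RNA polymerase II (Pol II), 2 for CLIP of QKI5 and 2 for its input. ChIP input had 4 samples in knockdown and 2 in control. H3K4me3 is a histone mark of active promoters, and CLIP maps the RNA sites that come down with a protein. Each of the 6 deposited peak lists merges the replicate pair of an assay in 1 condition, so no value below carries an error between replicates and no difference between conditions was tested. A peak list of a whole culture cannot tell fewer marked cells from less mark per cell, and a peak's width is not its height.

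Across chromosomes 1 to 22, X and Y, the knockdown and control lists held 21358 and 21953 H3K4me3 peaks and 35094 and 33370 Pol II peaks. The narrowest width in the lists, called the minimum width below, was that of 1764 H3K4me3 peaks in knockdown and 2123 in control, and of 10044 Pol II peaks in knockdown and 9721 in control. Of 8 monocyte or myeloid marker genes, 6 had gene-end peaks of both marks in both conditions, among them SPI1, which encodes the transcription factor PU.1, and LYZ. FCGR1A had none, and CSF1R had a Pol II peak of 755 bp in knockdown alone. Over all protein-coding genes, 66.6% had gene-end H3K4me3 in both conditions and 57.6% had Pol II. The 6 of 8 are thus not far above what is common. Of 16 markers of other cell types, H3K4me3 was present in both conditions at 4 (CD8A of T cells, PAX5 and CD79A of B cells and APOA1 of hepatocytes) and Pol II at 2 (KLF1 and APOA1). Another 3 had Pol II in 1 condition alone, PAX5 and ALAS2 in knockdown and CD79A in control. The T cell receptor subunits CD3D, CD3E and CD3G carried neither mark.

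The promoter windows of the members come first because they differ in base composition. RefSeq windows (GRCh38.p14), running from 250 bases before the gene start to 50 after it, matched 3 of the 5 members: CYBA at chr16:88651004-88651303 on the minus strand, CYBB at chrX:37779809-37780108 on the plus strand and NCF1 at chr7:74773761-74774060 on the plus strand. NCF4 and RAC2 had no entry. Each is printed 5′ to 3′, with capitals where a searched motif matched on either strand.
CYBA: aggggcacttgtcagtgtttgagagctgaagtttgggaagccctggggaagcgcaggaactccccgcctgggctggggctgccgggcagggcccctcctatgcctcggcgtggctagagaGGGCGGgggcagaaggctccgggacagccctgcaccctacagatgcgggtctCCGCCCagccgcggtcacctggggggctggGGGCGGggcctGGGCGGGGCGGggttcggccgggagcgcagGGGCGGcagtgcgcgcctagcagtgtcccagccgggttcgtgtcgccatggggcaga
CYBB: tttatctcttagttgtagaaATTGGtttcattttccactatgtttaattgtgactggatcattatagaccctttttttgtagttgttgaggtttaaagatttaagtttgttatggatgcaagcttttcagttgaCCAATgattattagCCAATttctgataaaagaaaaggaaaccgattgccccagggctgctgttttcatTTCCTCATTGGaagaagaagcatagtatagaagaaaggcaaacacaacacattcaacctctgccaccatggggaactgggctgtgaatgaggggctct
NCF1: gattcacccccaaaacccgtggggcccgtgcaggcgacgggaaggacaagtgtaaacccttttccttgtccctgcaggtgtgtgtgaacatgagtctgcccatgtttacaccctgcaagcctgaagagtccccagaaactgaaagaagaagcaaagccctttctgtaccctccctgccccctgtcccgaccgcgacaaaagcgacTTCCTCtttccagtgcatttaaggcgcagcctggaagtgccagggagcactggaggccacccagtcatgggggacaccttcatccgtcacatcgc

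The CYBA window held 6 GC boxes (GGGCGG, the motif of Sp1-type factors), of which 2 overlapped each other, and none of the other motifs searched. The windows of CYBB and NCF1 each held 1 GAGGAA, the core of the site that PU.1 binds, read on the opposite strand and beginning 48 and 45 bases before the gene start. CYBB also held CCAAT in 4 places, 2 on each strand, none of which overlapped GAGGAA. No window held a TATA box (TATAAA), the AP-1 motif TGACTCA or the STAT core TTCNNNGAA. Over all 35116 promoter windows, 45.0% held GGGCGG, 27.9% GAGGAA, 34.6% CCAAT, 11.5% TATAAA, 4.95% TGACTCA and 7.66% TTCNNNGAA, so each of the motifs found is common, and a match is not evidence of binding.

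CYBA had 23 CpG dinucleotides and 72.7% G and C in its window, CYBB 1 CpG and 37.7%, and NCF1 11 CpG and 57.3%. Protein-coding genes with a promoter window and with H3K4me3 at a gene end in both conditions had a median of 27 CpG (10874 genes), and those with H3K4me3 in neither list had 5 (4763 genes). H3K4me3 was present in both conditions at 11.9% of 927 genes with no more CpG than CYBB, at 27.1% of 4754 genes with no more than NCF1, and at 90.2% of 7701 genes with at least as many as CYBA. Among genes with 10 or 11 CpG in the window, as NCF1 has, 241 had the mark in both conditions and 224 in neither. The mark was counted at either gene end, not in the window itself. CYBA thus lay among genes with CpG-rich promoters, most of which had the mark at a gene end. CYBB lay among genes with CpG-poor promoters, most of which did not, and NCF1 where marked and unmarked genes were about equally many.

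**Figure D1:**
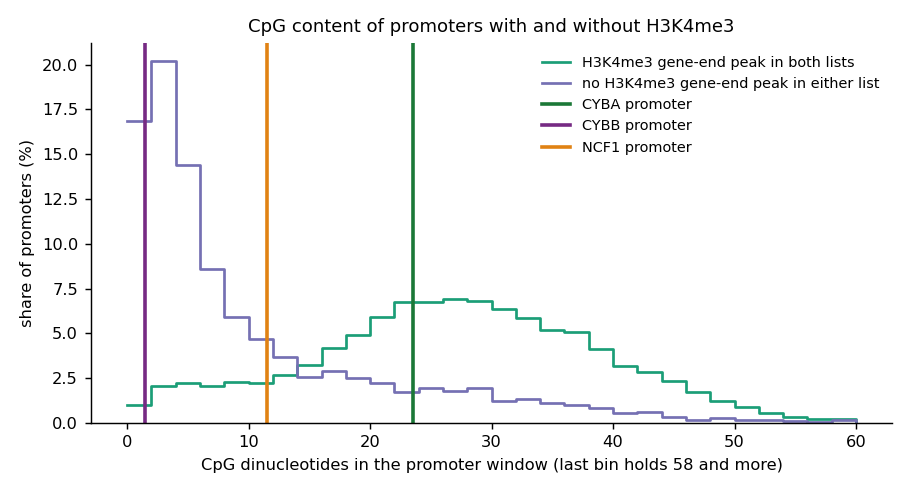
Number of CpG dinucleotides in the promoter window (x axis) against the share of promoters in percent (y axis), for genes with H3K4me3 at a gene end in both lists and for genes with it in neither, in bins of 2. Vertical lines mark CYBB at 1, NCF1 at 11 and CYBA at 23 CpG.

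Both marks were present in knockdown and in control at CYBA, NCF4 and RAC2, and neither mark was present in either condition at CYBB and NCF1. For each mark, 3 of 5 members had a gene-end peak in both conditions, where 66.6% of all protein-coding genes had one for H3K4me3 and 57.6% for Pol II. No member had a gene-end peak in 1 condition alone. Over all genes that happened for H3K4me3 at 0.779% in knockdown alone and 0.554% in control alone, and for Pol II at 3.97% in knockdown alone and 1.91% in control alone. The 2 members with no peak of either mark in any of the 4 ChIP lists, at their ends or inside, stand beside 23.2% of all genes.

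Of the membrane pair, CYBA carried H3K4me3 over its 5′ end, at 88647247 to 88651730 on chromosome 16 (GRCh38.p5) in knockdown and 88647350 to 88651981 in control. These peaks were 4484 bp wide in knockdown and 4632 bp in control, and 94.6% of the wider one was overlapped by the other. They ran 3806 bp into the gene in knockdown and 3703 bp in control, covering 49.0% and 47.7% of its length. The upstream edge lies within 1 kb of an end of the neighbouring gene MVD in both conditions.

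Pol II at CYBA covered most of the gene in both conditions, 80.0% in knockdown and 78.0% in control, but was divided differently into peaks. The knockdown list held a 5′ peak of 5998 bp (88646124 to 88652121) and a middle one of 1283 bp (88644057 to 88645339). Its 3′ peak measured 3888 bp (88639340 to 88643227). The middle peak starts 768 bp inside the 3′ end, so it is a gene-end peak by the 1 kb rule. The control list held a 5′ peak of 2350 bp (88649469 to 88651818), an inner one of 3358 bp (88645263 to 88648620) and a 3′ peak of 5221 bp (88639185 to 88644405). The knockdown 5′ peak overlapped both the 5′ and the inner control peak, and the control inner peak overlapped the 5′ and the middle knockdown peak. The 3′ peaks extend to within 1 kb of IL17C, so Pol II there cannot be given to CYBA alone. Summed over the 3 peaks, the widths were 11169 bp in knockdown and 10929 bp in control.

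CYBB, the catalytic subunit, had no H3K4me3 or Pol II peak within its 33403 bp or within 1 kb of its ends in either condition. The nearest peaks of all 4 lists lay at DYNLT3, the H3K4me3 peak 33.0 kb away in knockdown and 32.3 kb in control and the Pol II peak 33.6 kb away in knockdown and 33.7 kb in control. Among the 4648 genes with no peak in any list, 41.7% had a nearest peak closer than that of CYBB, and the median gap was 45.6 kb. CYBB was therefore no more remote from marked chromatin than is usual for such genes.

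Of the cytosolic members, NCF1 was likewise without a peak. Its nearest H3K4me3 peak lay 61.8 kb away at GTF2IRD2 in knockdown and in control. Its nearest Pol II peak lay 61.8 kb away in knockdown and 83.2 kb in control. All 4 had the minimum width. NCF1 has nearly identical copies, NCF1B and NCF1C, on the same chromosome, and these had no peak in any of the 4 lists either. How reads that match several copies were treated is not given in the sources used here, so an unmarked NCF1 cannot be told apart from reads that were not placed.

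NCF4 carried a single H3K4me3 peak over its lower-coordinate end on chromosome 22, at 36860828 to 36863389 in knockdown and 36860688 to 36863598 in control. It was 2562 bp wide in knockdown and 2911 bp in control, the narrowest H3K4me3 peak of the 3 marked members in each list, and both of its edges lay inside those of the control peak. Pol II over the same end measured 2995 bp in knockdown (36860450 to 36863444) and 3146 bp in control (36860583 to 36863728). An inner Pol II peak measured 1224 bp in knockdown (36869155 to 36870378) and the minimum width in control (36869093 to 36869593), and a peak just past the far end measured 1858 bp in knockdown (36878387 to 36880244) and 2886 bp in control (36878129 to 36881014). All 3 Pol II peaks of each condition overlapped one of the other, and Pol II covered 21.5% of the gene in knockdown and 19.0% in control. NCF4-AS1, an antisense gene, overlaps NCF4 in RefSeq, and ChIP does not tell their strands apart.

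RAC2, the Rac of blood cells, carried H3K4me3 over its upper-coordinate end on chromosome 22, at 37240780 to 37245145 in knockdown and 37240521 to 37244720 in control, 4366 bp and 4200 bp wide. The knockdown peak lay farther out, reaching 876 bp beyond the gene in knockdown and 451 bp in control. Pol II over that end measured 3001 bp in knockdown (37241754 to 37244754) and 3714 bp in control (37240942 to 37244655), and a peak at the far end 4036 bp in knockdown (37220763 to 37224798) and 5288 bp in control (37220592 to 37225879). The far-end peaks also lie within 1 kb of an end of SSTR3. Between these ends RAC2 had 5 inner Pol II peaks in knockdown and 3 in control. The largest inner peak was 3930 bp in knockdown (37229688 to 37233617), which spanned 2 control peaks, 1 of 929 bp and 1 of the minimum width. The other 4 knockdown peaks, 1 of 659 bp and 3 of the minimum width, overlapped no control peak. The remaining control peak, also of the minimum width, overlapped no knockdown peak. How often Pol II peaks lack a counterpart over all genes is not given here, so these counts do not set RAC2 apart. RAC1, described below, also had inner knockdown peaks of the minimum width that overlapped no control peak.

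Pol II peaks covered 45.3% of RAC2 in knockdown and 30.9% in control. That difference of 14.4 percentage points was larger than at 94.4% of the 11549 genes with Pol II at a gene end in both conditions. Their median difference was 0.0791 points, but Pol II covered a median of only 7.393% of them in knockdown and 7.004% in control. These genes were not matched to RAC2 for length or for the share covered. The 94.4% therefore does not show whether RAC2 stands out among genes covered to a like share. Leaving out peaks of the minimum width was a choice made after these values were seen. The shares at RAC2 were then 37.4% in knockdown and 25.6% in control. The difference was 1.97 points at CYBA with and without such peaks. At NCF4 it was 2.58 points, or 5.53 without them. Whether the wider coverage of RAC2 exceeds the spread between cultures could not be tested.

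**Figure D2:**
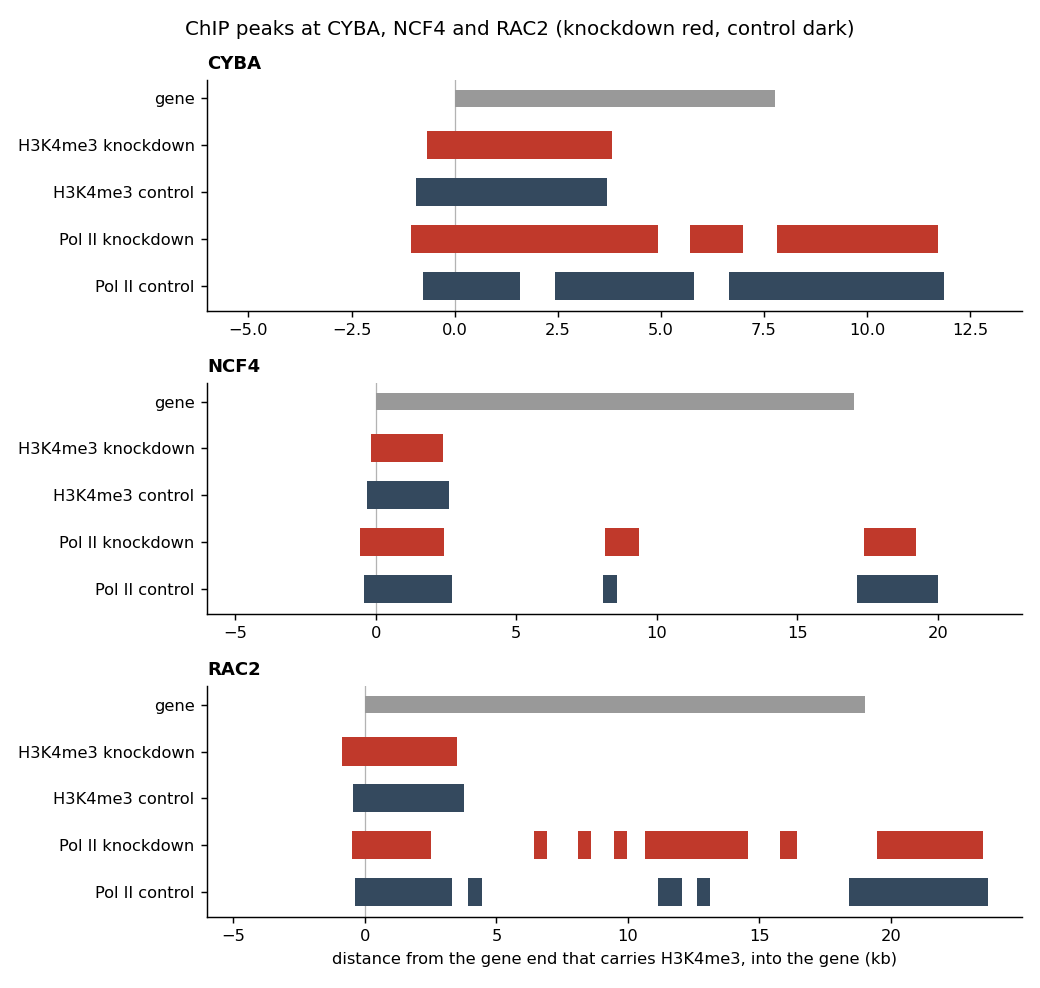
Peaks of the 4 ChIP lists along CYBA, NCF4 and RAC2, with the x axis in kb from the gene end that carries H3K4me3 and the gene as a grey bar. Knockdown peaks are red and control peaks dark. H3K4me3 sits at 1 end in both conditions, Pol II lies at both ends, and RAC2 has 5 inner Pol II peaks in knockdown and 3 in control.

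The 3 marked members kept the same order of H3K4me3 width in both conditions, CYBA widest, then RAC2, then NCF4. CYBA was wider than 67.5% of genes with a gene-end peak in the knockdown list and 66.8% in the control list. For RAC2 these shares were 65.3% in knockdown and 57.8% in control, and for NCF4 19.2% in knockdown and 25.4% in control. By the widest Pol II peak at either end, CYBA came first in knockdown with 5998 bp, its 5′ peak. In control RAC2 with 5288 bp and CYBA with 5221 bp, its 3′ peak, were close. NCF4 was the narrowest of the 3 for Pol II too, at 2995 bp in knockdown and 3146 bp in control. Without replicate lists it cannot be said which of these neighbours differ beyond their spread.

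**Figure D3:**
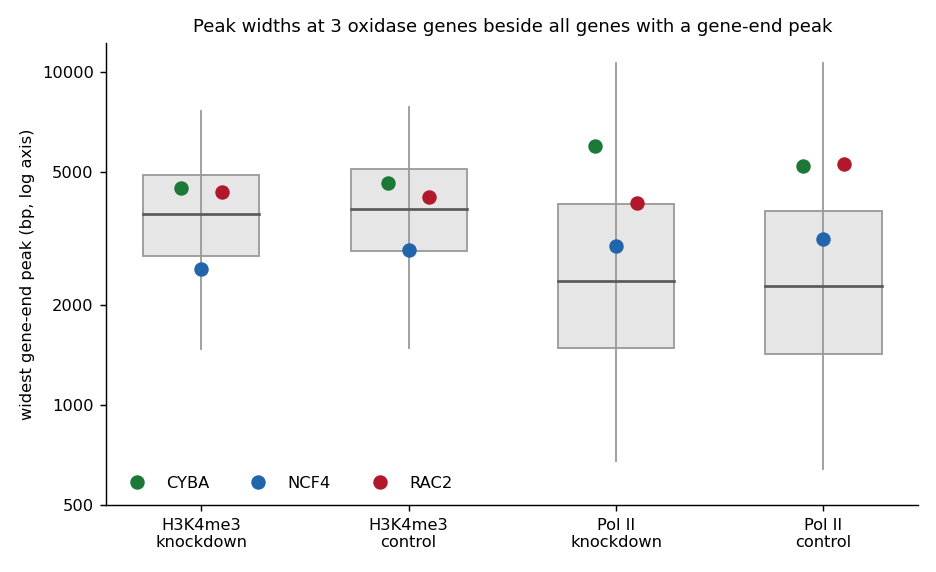
Widest gene-end peak in bp (log axis) of CYBA, NCF4 and RAC2 in each ChIP list. Grey boxes give the quartiles and median over the protein-coding genes that have such a peak and grey lines the 5th to 95th percentiles. NCF4 lies below the median for H3K4me3 in both conditions, and all 3 genes lie above it for Pol II.

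Knockdown and control widths of H3K4me3 differed little. The log2 ratio of knockdown over control was -0.05 at CYBA, -0.18 at NCF4 and 0.06 at RAC2, against a median of -0.04 and a range from -0.44 (5th percentile) to 0.38 (95th) over 13348 genes. For the widest Pol II peak at either end, the ratio was 0.20 at CYBA, higher than at 59.8% of 11549 genes. At CYBA this sets the 5′ peak of knockdown against the 3′ peak of control, so it is not the change of a single peak. The ratio was -0.07 at NCF4 and -0.39 at RAC2, with a median of 0.08 over those genes. Summed over all Pol II peaks of a gene it was 0.03 at CYBA, -0.10 at NCF4 and 0.26 at RAC2, so the sign at RAC2 depends on whether the inner peaks are counted. For Pol II at the end with H3K4me3, a measure added after the values were seen, the ratio was 1.35 at CYBA, -0.07 at NCF4 and -0.31 at RAC2, with a median of 0.07 over 9175 genes. The CYBA value at that end was higher than at 97.7% of them, and it arises where the control list holds separate 5′ and inner peaks and the knockdown list a single one.

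The end opposite H3K4me3 is the 3′ end of CYBA by its strand in the RefSeq table. At the opposite end, the widest Pol II peak was narrower in knockdown at all 3 members. The log2 ratio was -0.43 at CYBA, -0.64 at NCF4 and -0.39 at RAC2. At CYBA the control peak of 5221 bp overlapped 2 knockdown peaks at that end, of 3888 bp and 1283 bp. Only the wider was used, so the CYBA value depends on how Pol II was divided into peaks. Over the 1861 genes with a Pol II peak at the opposite end in both conditions the median was 0.04. Of them 44.1% were narrower in knockdown, so each member taken alone is well within the usual range. Of the 11342 genes with H3K4me3 at 1 end alone in both conditions, 16.4% had a separate Pol II peak at the other end in both. All 3 marked members did, but at CYBA and RAC2 that peak also lies within 1 kb of an end of IL17C and of SSTR3, respectively. Genes where a Pol II peak reached both ends were counted as lacking one, here and among the 1861. The 16.4% thus leaves out Pol II that spans a gene. Genes too short for the 1 kb zones of their ends to lie apart were not used. The comparison by gene end was chosen after these values were seen.

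**Figure D4:**
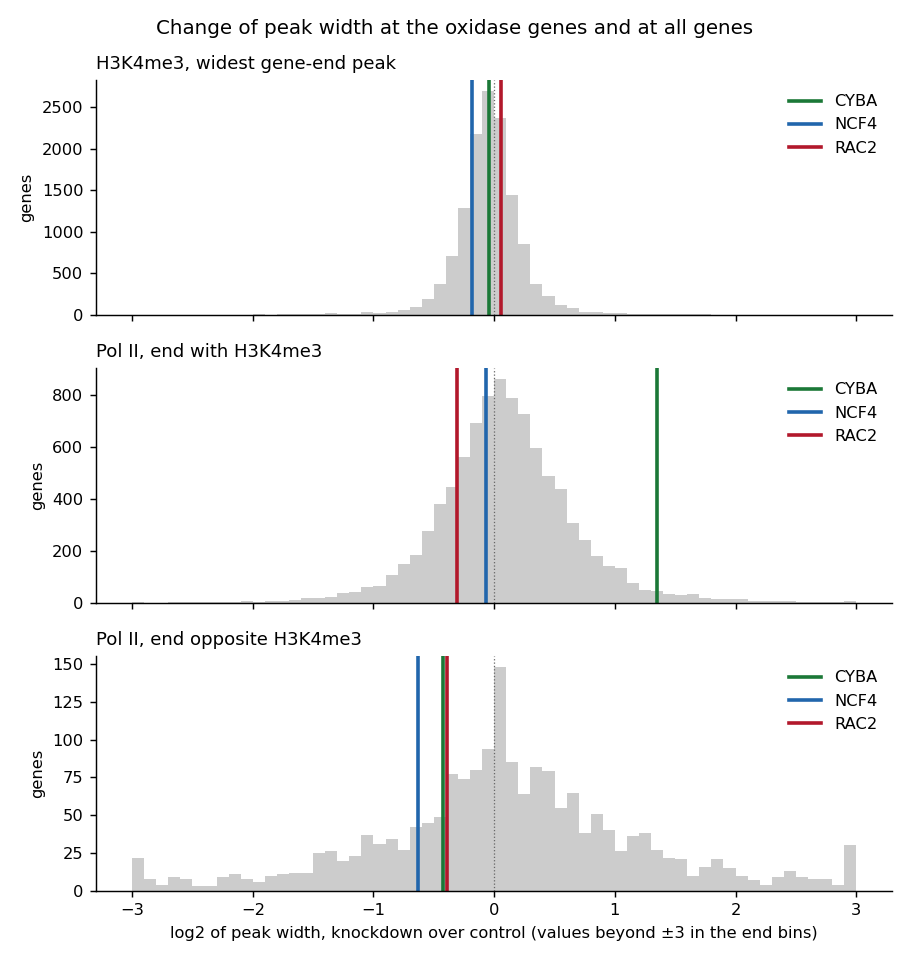
Number of genes (y axis) by log2 of peak width, knockdown over control (x axis), for H3K4me3 at either gene end, for Pol II at the end with H3K4me3 and for Pol II at the opposite end. Coloured lines mark CYBA, NCF4 and RAC2. Only CYBA in the middle panel, at 1.35, lies outside the 5th to 95th percentiles.

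QKI5 CLIP listed no site in any of the 5 transcripts. The knockdown list held 669 rows and the control list 7337, and 0 of them carried a member's symbol or lay inside a member. Of all protein-coding genes, 1.84% had a row in knockdown and 14.0% in control. Among 4383 genes no shorter than CYBA (7765 bp) and no longer than CYBB (33403 bp) that had Pol II at a gene end in both conditions, 13.9% had a control row. CYBA, NCF4 and RAC2 belong to that set, and like most of it they had none. The nearest control row lay 56.6 kb from CYBB and 72.7 kb from CYBA, at ZC3H18, and the gaps at the other 3 members were larger. The depth of these libraries is unknown, and an unlisted site is not proof that QKI5 did not touch the RNA.

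Of 3 close partners of the members, all had Pol II at a gene end in both conditions and 2 had H3K4me3 there. RAC1, the widely expressed relative of RAC2, had H3K4me3 of 6167 bp in knockdown and 5946 bp in control at its start, and its widest Pol II peak measured 11651 bp in knockdown and 6338 bp in control. In knockdown that peak spans its far end and in control it begins past it, and both come within 1 kb of an end of DAGLB. CYBC1, the chaperone of the cytochrome, had H3K4me3 of 2933 bp in knockdown and 2818 bp in control, and Pol II of up to 8793 bp in knockdown and 6041 bp in control, in peaks that come within 1 kb of HEXD. RAP1A, a small GTPase that associates with the cytochrome, had its H3K4me3 peak inside its RefSeq span, 4782 bp in knockdown and 4162 bp in control. Its widest gene-end Pol II peak measured 4872 bp in knockdown, near INKA2, and had the minimum width in control, where the peaks that the knockdown one overlaps lie more than 1 kb from the gene.

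Of the 34 pathway genes set beside the members (partners, other oxidases, Rac regulators, kinases, and genes of charge and peroxide handling), 22 had H3K4me3 and 22 had Pol II at a gene end in both conditions, 20 had both marks, and none had a mark in 1 condition alone. These 64.7% for each mark compare with the 66.6% and 57.6% of all genes given above. Of the kinases 7 of 8 had each mark, and of the other oxidases 4 of 10 had H3K4me3 and 3 of 10 Pol II. NOX1, NOX3, NOX4 and NOX5 had none. DUOX2 and DUOXA2 had the same H3K4me3 widths, 1602 bp in knockdown and 1361 bp in control. Each was counted in all these numbers and in those below. Among the pathway genes with peaks in both lists, the H3K4me3 peak was wider in knockdown at 14 of 22 and the Pol II peak at 14 of 22, where over all genes with peaks in both lists 41.9% were wider for H3K4me3 and 56.8% for Pol II. The median log2 ratios were 0.05 for H3K4me3 and 0.12 for Pol II, against -0.04 and 0.08 over all genes.

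**Figure D5:**
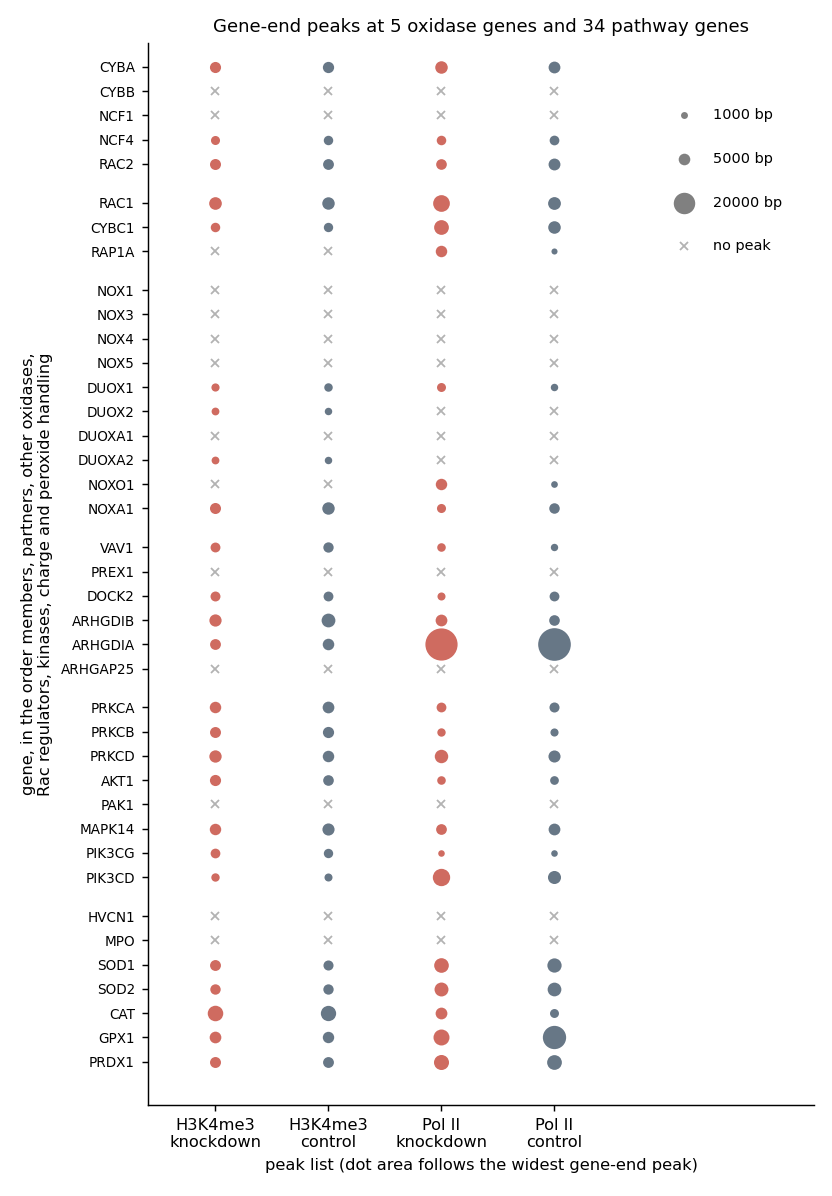
Gene-end peaks of the 5 members and 34 pathway genes (rows) in the 4 ChIP lists (columns, knockdown red and control dark). Dot area follows the widest gene-end peak in bp and a cross marks no peak. CYBB and NCF1 have crosses in all 4 columns, and no gene has a dot in 1 condition of a mark alone.

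Of the 34 pathway genes, 4 had a knockdown CLIP row and 8 a control row, 11.8% and 23.5%, beside 1.84% and 14.0% of all protein-coding genes. These differences were not tested, and the pathway genes were not matched to all genes for length or for Pol II. MPO, which encodes the granule peroxidase that uses hydrogen peroxide made from superoxide, had 4 control rows on chromosome 17 (minus strand, between 58270449 and 58273659), with 34 to 58 reads and log2 enrichments of 8.42 to 9.35, and no knockdown row. SOD1, a superoxide dismutase, had a row at the same place on chromosome 21 in both lists, starting at 31663790. It had 9 reads and a log2 enrichment of 4.21 in knockdown and 13 reads and 4.45 in control. The enrichments are the authors', and were used only within their own list.

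By width over the 4 ChIP lists, the genes most like CYBA were PTPN18 and RPS10-NUDT3, at distances of 0.07 and 0.08 in log2 units. Those most like NCF4 were NAPSA (0.17) and PBXIP1 (0.21), and those most like RAC2 were CDKN3 (0.12) and EIF5A (0.13). The distance is Euclidean over the log2 widths of the widest gene-end peaks, among 11135 genes with a peak in all 4 lists. It was not computed for CYBB and NCF1, which have no peak.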

How the data were processed

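THP-1 cells were assayed by ChIP and CLIP in 22 samples of 10 groups. The authors deposited 6 peak lists, which merge replicates according to the series' design text. HOMER and GRCh38.p5 appear, without a step, in the submitters' processing notes. For the aligner, peak caller, thresholds and treatment of inputs and multiply placed reads, nothing is stated: not given in the sources used here. The ChIP lists as deposited hold a score of 1 at every peak, so peaks were described by width. The CLIP lists deposited by the authors have no header, and their columns were read from the values as -log10 p and log2 enrichment, with reads, an identifier and a symbol per row. The depth of every sample is unknown.

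Members were matched by symbol to RefSeq gene spans (GRCh38.p14), whose coordinates are not printed. A gene-end peak lies within 1 kb of either end, and shared peaks overlap by at least 1 bp. Peaks were counted with Python 3.11.15 and pandas 2.3.3, after the routines had been checked on planted peaks. No test across conditions was made. All 5 members are named with every value. Of the pathway list, RAC1, CYBC1 and RAP1A are always named, and others where a mark was in 1 condition alone or a CLIP row existed. NOX1, NOX3, NOX4, NOX5, DUOX2 and DUOXA2 were added after their values were seen. A further gene of that list and 1 cell type marker are not reported here. The members and lists were chosen with earlier results of these data known.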

Additional observations from a re-analysis of the deposited data

How the results depend on the processing

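The counts of members with a gene-end peak were 3 for each mark in each condition whether peaks had to lie within 0, 500, 2000 or 5000 bp of a gene end, and with peaks of the minimum width or of up to 1000 bp left out. All 3 H3K4me3 gene-end peaks in knockdown overlapped a control peak, also by at least 50% of each peak. Of 7 Pol II gene-end peaks 7 overlapped by 1 bp and 5 by 50%. The same shares over all gene-end peaks are not given here, so these counts do not set the members apart. The CLIP count was 0 for each condition by position, with stricter thresholds and with adjoining peaks merged. The NCF1 count of ChIP peaks was 0 at NCF1B and NCF1C too. That cannot show that NCF1 is unmarked, because the treatment of reads that match several copies is not given. The RAC2 Pol II width ratio reversed: the log2 ratio of the widest gene-end peak was -0.39, while that of the summed widths of all its peaks was 0.26, since that sum includes the inner peaks. At CYBA the Pol II ratio was 0.20 for the widest gene-end peak, which lies at opposite ends in knockdown and control. The ratio was 0.03 for the sum and 1.35 for the end with H3K4me3, an alternative added after the data were seen. The NCF4 coverage difference was 2.58 points, and 5.53 without peaks of the minimum width, also added then. Of the other single-gene width and coverage values none changed sign. No paired analysis was possible because each list pools both replicates, and leaving out a replicate was not possible for the same reason. Widths are limited by an unknown depth.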

Other observations

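The kinases that act upstream of the oxidase had most of the remaining CLIP rows of the pathway. PRKCB, a protein kinase C that phosphorylates NCF1, had 1 knockdown row with 10 reads and a log2 enrichment of 6.27 (chromosome 16, 23983024 to 23983127), and 4 control rows at 3 sites, each with 9 reads and enrichments of 4.51 to 6.09. The knockdown site lay at none of the control positions. PRKCA had 1 knockdown row with 6 reads and an enrichment of 5.95, and 2 adjoining control rows with 9 reads each at another site. PIK3CG had 1 row in knockdown alone, with 8 reads and an enrichment of 4.63, and PIK3CD 1 row in control alone, with 9 reads and 6.09.

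PAK1, VAV1 and SOD2 completed the set, each with rows in control alone. PAK1 had 2 adjoining rows of 7 reads each with an enrichment of 6.73, VAV1, an exchange factor for Rac, 1 row of 7 reads with 6.73, and SOD2, the mitochondrial superoxide dismutase, 1 row of 8 reads with 5.34. PAK1 and MPO carried CLIP rows while having no gene-end peak of either mark in any list. Peaks farther inside these genes are not given here, and at RAP1A the H3K4me3 peak lay inside the span. The genes can therefore not be called unmarked.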
